A study of Mus musculus with 10 samples.

Results

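The epithelial sodium channel lets sodium ions enter epithelial cells from the lumen of ducts, airways and kidney tubules, and it is blocked by the diuretic amiloride. Its conducting form is assembled from an alpha, a beta and a gamma subunit, encoded by Scnn1a, Scnn1b and Scnn1g. The number of channels at the cell surface is set largely by Nedd4l, a ubiquitin ligase that binds the tails of the subunits and marks them for removal, and by Sgk1, a corticosteroid-induced kinase that phosphorylates Nedd4l and so weakens its hold on the channel. In the mammary gland sodium is taken up across the epithelium that lines the ducts. These 5 genes were followed in mammary tumours with and without Ezh2, the methyltransferase of the PRC2 complex, out of 22180 genes with a value. Each of the 5 was measured by 1 probe set that carries its symbol alone, so no choice between probe sets had to be made. The set was chosen by the known biology of the channel around Scnn1b, which was itself selected on its higher level in Ezh2-/- tumours in this comparison. Its values are therefore given as a description without a test, while Scnn1a, Scnn1g, Nedd4l and Sgk1 were tested among all genes.

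Total RNA of 5 Ezh2-/- and 5 Ezh2+/+ tumours from Tet-ON PyVmT mice was read on Mouse Gene 2.0 ST arrays from Affymetrix, each tumour on its own array. In these animals the MMTV promoter drives the transactivator rtTA, and doxycycline then switches on a Tet operator transgene that encodes both the polyomavirus middle T oncogene and Cre recombinase. All 10 tumours therefore carried rtTA, PyVmT and Cre and had been exposed to doxycycline, and the genotypes differed in having conditional or wild-type Ezh2 alleles. Tumours appear later in mice of this model that lack Ezh2, so the age of the animal and the length of doxycycline exposure at endpoint may differ with genotype and cannot be told apart from it here. Tumours came from virgin females on a pure FVB background and were flash frozen whole when the mice reached tumour burden endpoint. The labels give the age only as endpoint, and the methods give the age at which doxycycline was started. Cre acts where MMTV is active, so fibroblasts, vessels and immune cells of an Ezh2-/- tumour keep the gene. Whether each tumour came from a different mouse is not stated, and the p-values measure the spread between these tumours. Ezh2 itself lay between 6.36 and 6.50 in the Ezh2-/- tumours and between 6.98 and 7.69 in the Ezh2+/+ tumours on the log2 scale, a log2 fold change of -1.03 with an SE of 0.14 (limma, adjusted p = 0.000770). It is unknown here whether the Ezh2 probes fall within the deleted exons. The defining markers of luminal epithelium were present in both genotypes, with a mean level of 8.42 to 8.87 in Ezh2-/- and 8.45 to 8.79 in Ezh2+/+ tumours over 13 genes.

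Scnn1b and Scnn1g lie side by side on mouse chromosome 7, in the same direction and with 0 protein-coding genes between them. Their promoters are shown because the neighbouring genes differed in log2 fold change, a difference that holds the rise Scnn1b was selected for. Each CG dinucleotide, the target of DNA methylation and the base of CpG islands, is in capitals. DNA methylation was not measured here, and a link of these sequences to the levels was not tested. Each run holds the 250 bases before the RefSeq start on the plus strand of GRCm38.p6, at chr7:121864788-121865037 for Scnn1b and chr7:121734229-121734478 for Scnn1g.
Scnn1b: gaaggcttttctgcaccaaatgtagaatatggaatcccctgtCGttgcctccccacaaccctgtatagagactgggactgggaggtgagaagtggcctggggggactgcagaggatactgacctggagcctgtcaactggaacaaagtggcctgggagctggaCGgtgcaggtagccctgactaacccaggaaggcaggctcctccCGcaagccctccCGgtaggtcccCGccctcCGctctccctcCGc
Scnn1g: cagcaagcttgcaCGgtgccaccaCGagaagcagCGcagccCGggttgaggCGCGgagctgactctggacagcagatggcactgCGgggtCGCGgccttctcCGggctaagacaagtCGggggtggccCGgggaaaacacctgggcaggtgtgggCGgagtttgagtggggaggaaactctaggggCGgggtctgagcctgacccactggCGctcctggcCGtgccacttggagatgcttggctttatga
The Scnn1b window held 7 CG dinucleotides and 60.8% G and C, and the Scnn1g window held 16 and 65.2%. Among 32851 mouse promoter windows of the same length, the median was 6 CG dinucleotides and 52.4% G and C. Of these windows, 46.3% held as many CG dinucleotides as Scnn1b or more, and 25.4% as many as Scnn1g or more. CG reads the same on both strands, and a count of it is a description of the sequence. RefSeq promoters were matched for 3 of the 5 genes, the other being Sgk1, for which 6 starts are listed.

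Of the subunit genes, Scnn1b was the one selected for its higher level, so its standing against the others is a description. Scnn1b, which encodes the beta subunit that raises channel number and current together with the gamma subunit, was higher in every Ezh2-/- tumour than in any Ezh2+/+ tumour. Its log2 level was 6.71, 6.69, 7.14, 6.90 and 6.58 in Ezh2-/- replicates 1 to 5. In Ezh2+/+ replicates 1 to 5 it was 4.84, 5.76, 4.41, 5.19 and 4.54. The Ezh2-/- tumours thus lay close together, while Ezh2+/+ replicate 2 stood nearest to them and replicate 3 farthest below. The means were 6.80 ± 0.22 (SD, n = 5) and 4.95 ± 0.55 (SD, n = 5), a log2 fold change of 1.86 (standard error 0.23) or 3.62-fold. Over all genes, 22 had a larger rise. Without overlap of the genotypes, Scnn1b was 1 of 1121 genes that were higher in every Ezh2-/- tumour, 5.05% of those measured. Leaving out single tumours moved its log2 fold change between 1.72 and 2.06, and other scalings between 1.76 and 2.03.

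Scnn1a encodes the alpha subunit, which can conduct by itself and is needed for a working channel. On the log2 scale it was measured at 5.64, 5.47, 5.48, 5.81 and 5.35 in Ezh2-/- replicates 1 to 5 and 5.88, 5.78, 5.12, 4.75 and 4.73 in Ezh2+/+ replicates 1 to 5. The Ezh2-/- values all lay inside the range of the Ezh2+/+ tumours, of which replicate 1 was the highest of all 10 and replicates 4 and 5 the lowest. The means were 5.55 ± 0.18 (SD, n = 5) and 5.25 ± 0.55 (SD, n = 5), a log2 fold change of 0.29 with an SE of 0.22 (limma, adjusted p = 0.372). The 95% interval ran from 0.878-fold to 1.71-fold, and changes within these bounds were not resolved by these arrays.

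Scnn1g encodes the gamma subunit, which proteases cut to open the channel. The tumours had log2 levels of 6.02, 5.73, 6.37, 5.76 and 5.86 in Ezh2-/- replicates 1 to 5 and 5.31, 6.10, 5.39, 5.73 and 5.66 in Ezh2+/+ replicates 1 to 5. The genotypes overlapped, with only Ezh2-/- replicate 3 above every Ezh2+/+ tumour. The means of 5.95 ± 0.26 (SD, n = 5) and 5.64 ± 0.31 (SD, n = 5) gave a log2 fold change of 0.31 with an SE of 0.17 (limma, adjusted p = 0.210). Its 95% interval ran from 0.965-fold to 1.59-fold. The gene passed the threshold when each array was centred on its median, with a log2 fold change of 0.48 (adjusted p = 0.0457 from limma). Under that scaling the median over all genes moved as well, from 0.026 to 0.20.

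**Figure D1:**
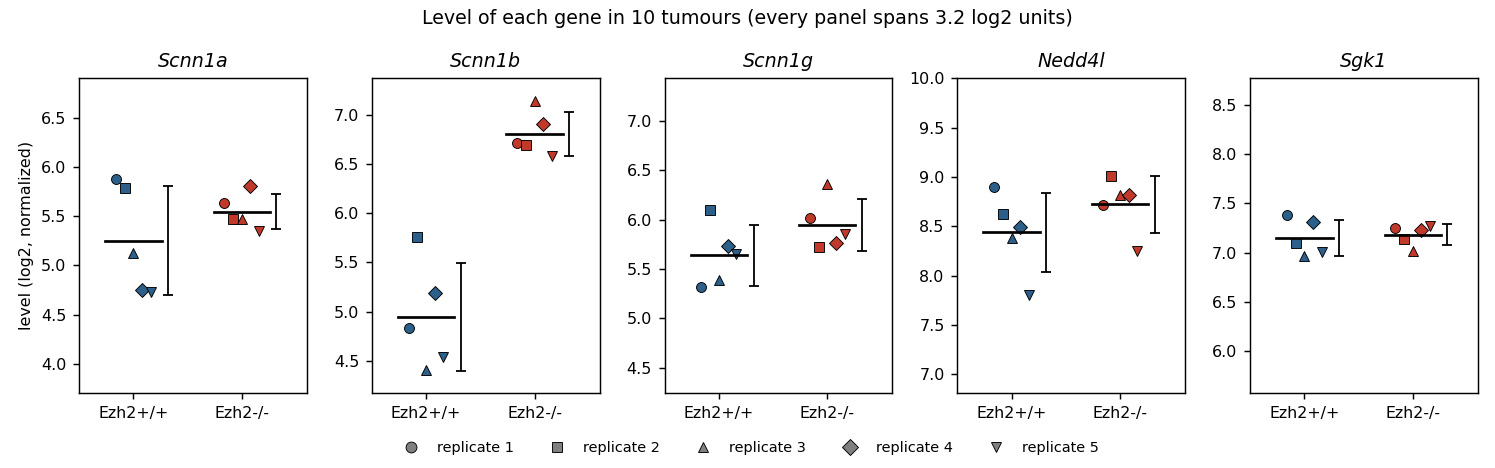
Normalized log2 level (vertical axis) of the 3 subunit genes, Nedd4l and Sgk1 in each tumour, with Ezh2+/+ in blue, Ezh2-/- in red, 1 symbol per replicate number, the group mean as a line and the SD as a bar (n = 5 each). Scnn1b is the gene whose genotypes do not overlap, at 6.58 to 7.14 in Ezh2-/- against 4.41 to 5.76 in Ezh2+/+ tumours.

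Nedd4l, the ligase that removes the channel from the cell surface, is encoded on chromosome 18. Log2 levels were 8.72, 9.01, 8.82, 8.82 and 8.25 in Ezh2-/- replicates 1 to 5 and 8.90, 8.63, 8.38, 8.49 and 7.81 in Ezh2+/+ replicates 1 to 5. The lowest tumour of each genotype was its replicate 5, and the ranges overlapped widely. The means were 8.72 ± 0.28 (SD, n = 5) and 8.44 ± 0.40 (SD, n = 5), a log2 fold change of 0.28 with an SE of 0.19 (limma, adjusted p = 0.326). The 95% interval ran from 0.908-fold to 1.63-fold.

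Sgk1, the kinase that holds Nedd4l back, was the steadiest of the 5. Levels on the log2 scale were 7.25, 7.14, 7.01, 7.23 and 7.28 in Ezh2-/- replicates 1 to 5 and 7.38, 7.10, 6.97, 7.31 and 7.01 in Ezh2+/+ replicates 1 to 5. Both genotypes spanned nearly the same levels. The means of 7.18 ± 0.11 (SD, n = 5) and 7.15 ± 0.18 (SD, n = 5) gave a log2 fold change of 0.03 with an SE of 0.11 (limma, adjusted p = 0.865), and the sign turned to -0.11 after quantile normalization and -0.12 after cyclic loess. The 95% interval ran from 0.865-fold to 1.21-fold, the narrowest of the 4 genes tested.

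With Scnn1b left aside, 0 of 4 genes passed an adjusted p under 0.05 from limma, 0 by the per-gene test of the methods with adjustment, and 0 had an unadjusted p under 0.05. Over all genes tested with limma, 7.29% were higher and 7.56% lower in Ezh2-/- tumours, 14.8% in all. The share of all genes with an unadjusted p under 0.05 is larger than that and was not counted. The 14.8% is a loose lower bound for it. For example, the keratin gene Krt18 had an unadjusted p of 0.0461 and an adjusted p of 0.142 in limma. Counts at an unadjusted p under 0.05 therefore cannot be set above the share of all genes. All 5 log2 fold changes were positive as deposited, that of Scnn1b by its selection, and the share of all genes with a positive change was not counted. Sgk1 turned negative under the scalings named above and without Ezh2+/+ replicate 3 or 5.

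Differences between subunit genes within a tumour do not depend on how that array was scaled by a constant. Probe sets respond differently, so the sign of such a difference says nothing of which subunit was more abundant, and only the shift between genotypes can be read. Scnn1b minus Scnn1a was 1.07, 1.23, 1.66, 1.09 and 1.23 log2 units in Ezh2-/- replicates 1 to 5 and -1.04, -0.02, -0.72, 0.44 and -0.19 in Ezh2+/+ replicates 1 to 5. The genotypes did not overlap, and the mean shift was 1.56 (standard error 0.28). Scnn1b minus Scnn1g was 0.69, 0.97, 0.77, 1.14 and 0.72 in Ezh2-/- and -0.47, -0.34, -0.98, -0.54 and -1.11 in Ezh2+/+ replicates 1 to 5. Here too the genotypes lay apart, with a mean shift of 1.55 (standard error 0.17). Both shifts hold the rise for which Scnn1b was picked and were not tested.

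The difference that leaves Scnn1b out did not separate the genotypes. Scnn1g minus Scnn1a was 0.38, 0.26, 0.89, -0.05 and 0.51 log2 units in Ezh2-/- replicates 1 to 5 and -0.56, 0.32, 0.27, 0.98 and 0.92 in Ezh2+/+ replicates 1 to 5. Ezh2+/+ tumours held both the lowest and the highest value. The mean shift was 0.015 (standard error 0.32, 95% interval -0.72 to 0.75, exact two-sided permutation p = 0.960). The smallest p that 5 against 5 tumours allow is 0.00794.

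**Figure D2:**
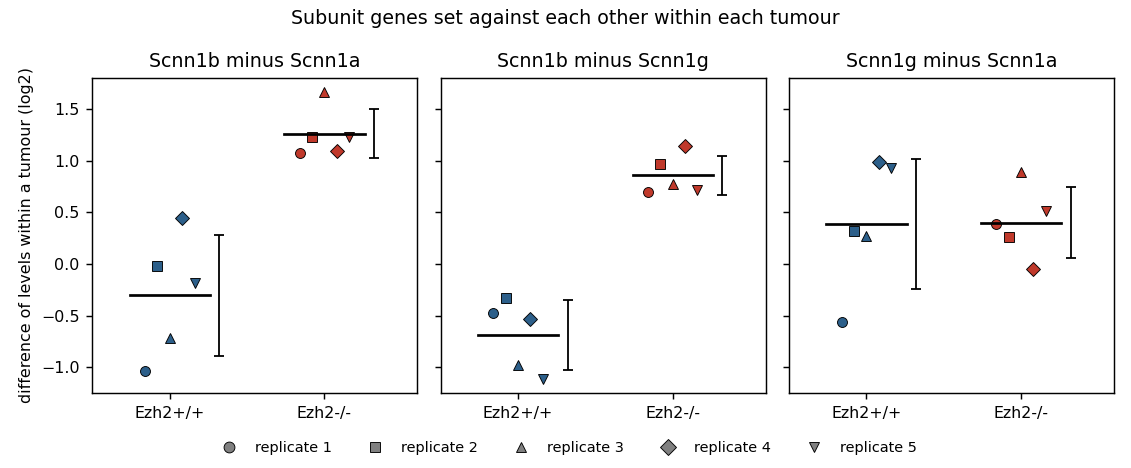
Difference in log2 level between pairs of subunit genes (vertical axis, log2 units) in each tumour, with Ezh2+/+ in blue, Ezh2-/- in red, 1 symbol per replicate number, the group mean as a line and the SD as a bar (n = 5 each). Both differences that hold Scnn1b lie apart between genotypes, while Scnn1g minus Scnn1a spans -0.05 to 0.89 in Ezh2-/- and -0.56 to 0.98 in Ezh2+/+ tumours.

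The genes that act on the channel, are related to it or carry other ions and water were then read as 7 lists, with 95 measured genes. Together 6 were higher in Ezh2-/- tumours, 3 were lower and 86 did not pass (9.47% called, against 14.8% of all genes, adjusted p under 0.05 from limma). Their median log2 fold change was 0.11, against 0.026 over all genes. The number higher was 3 without Ezh2-/- replicate 1, 2 without replicate 2, 3 without replicate 3, 2 without replicate 4 and 12 without replicate 5. Without Ezh2+/+ replicate 3 it was 3, and without Ezh2+/+ replicate 5 it was 2. The number lower was 1 when leaving out Ezh2-/- replicate 1, Ezh2-/- replicate 4 or Ezh2+/+ replicate 5.

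The Nedd4 family of ubiquitin ligases, with its adaptors and deubiquitylases, had 1 of 15 measured genes higher, 0 lower and 14 that did not pass. The share called was 6.67%, against 14.8% of all genes, and the median log2 fold change was 0.20. The gene that rose was Wwp2, a ligase of the same family as Nedd4l. Its log2 level was 7.33, 7.44, 7.39, 7.14 and 7.30 in Ezh2-/- replicates 1 to 5 and 7.00, 6.48, 6.35, 6.85 and 5.84 in Ezh2+/+ replicates 1 to 5. The genotypes did not overlap, as for 5.05% of all genes in this direction. Wwp2 had a log2 fold change of 0.81 with an SE of 0.19 (limma, adjusted p = 0.0155). Its call was lost under the per-gene test of the methods with adjustment. Wwp1, its close relative, had a log2 fold change of 0.52 and an adjusted p of 0.0628 from limma. Ywhab, an adaptor that binds phosphorylated Nedd4l, had 0.27 (adjusted p = 0.0525 from limma), and the ligase Smurf2 had 0.28 (adjusted p = 0.178 from limma). Without Ezh2-/- replicate 5, 3 genes of the list were higher.

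Among 16 kinases and partners of the Sgk1 pathway, 2 were higher, 0 lower and 14 did not pass. With 12.5% called, against 14.8% of all genes, the list had a median log2 fold change of 0.20. Sgk3, a relative of Sgk1 that sits on endosomes, rose where Sgk1 did not pass. Its log2 level was 5.84, 6.17, 5.71, 5.93 and 6.01 in Ezh2-/- replicates 1 to 5 and 5.22, 5.57, 5.41, 5.25 and 5.31 in Ezh2+/+ replicates 1 to 5. Every Ezh2-/- tumour lay above every Ezh2+/+ tumour, as for 5.05% of all genes. The log2 fold change was 0.58 with an SE of 0.11 (limma, adjusted p = 0.00786), and Sgk3 was called in the 20 alternatives that adjust p. Its fold change of 1.49 lay under the methods' fold threshold of 1.5. The difference between Sgk3 and Sgk1 was not tested.

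Mapkap1, a subunit of the mTOR complex that activates Sgk1, also rose, by 0.38 on the log2 scale (adjusted p = 0.0304 from limma). When single tumours were left out, 4 of 10 fits kept this call, and it was lost after quantile normalization, cyclic loess and centring on the luminal markers. Wnk1, a kinase of salt transport upstream of Sgk1, had a log2 fold change of 0.77 (adjusted p = 0.0994 from limma) and Akt1, a kinase related to Sgk1, 0.27 (adjusted p = 0.0925 from limma). The list's count fell to 1 without Ezh2-/- replicate 2, 3 or 4 or Ezh2+/+ replicate 3 or 5, and was 4 without Ezh2-/- replicate 5.

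The list of proteases that activate the channel and of their inhibitors held 13 measured genes. In limma 1 was higher, 0 lower and 12 did not pass (7.69% called, against 14.8% of all genes). The median log2 fold change was 0.24. The gene that rose was Spint1, an inhibitor of the membrane protease matriptase, with 4 of 5 Ezh2-/- tumours above every Ezh2+/+ tumour. On the log2 scale it stood at 9.25, 9.55, 9.43, 9.35 and 8.97 in Ezh2-/- and 8.60, 8.81, 9.18, 8.86 and 8.49 in Ezh2+/+ replicates 1 to 5. The log2 fold change was 0.52 with an SE of 0.15 (limma, adjusted p = 0.0342). When single tumours were left out, 2 of 10 fits kept the call, and it was lost after cyclic loess and under the test of the methods with adjustment. St14, which encodes matriptase, had 0.28 (adjusted p = 0.193 from limma), the membrane protease gene Tmprss4 0.97 (adjusted p = 0.111 from limma) and the lysosomal protease gene Ctsb 0.24 (adjusted p = 0.144 from limma).

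Corticosteroids raise Sgk1 and Scnn1a in kidney and airway. Of 14 receptors, enzymes and target genes of these hormones, 0 passed in limma or in the per-gene test of the methods with adjustment. The share of all genes at an unadjusted p under 0.05, over 14.8%, was not counted, and 1 gene of the list lay there. That gene was Dusp1, a phosphatase induced by glucocorticoids, at a log2 fold change of 0.39 (adjusted p = 0.0823 from limma). The other glucocorticoid targets with the smallest p were Zbtb16 at 0.29, Fkbp5 at -0.44 and Cebpd at 0.36, none of which passed. The median of the list was 0.12, and 1 gene was higher without Ezh2+/+ replicate 4.

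The Dot1l complex keeps Scnn1a low in kidney cells. Of its 4 listed genes, 0 passed in limma or in the per-gene test of the methods with adjustment. An unadjusted p under 0.05 was reached by 2 of them. For all genes that share, over 14.8%, was not counted, so the 2 cannot be set against it. Dot1l, a histone methyltransferase, had a log2 fold change of 0.59 (adjusted p = 0.135 from limma) and Sirt1, a deacetylase, 0.29 (adjusted p = 0.106 from limma). Mllt10 had 0.17, and Mllt3, the DNA-binding partner of Dot1l at Scnn1a, had -0.07, a sign that turned after median centring and without Ezh2-/- replicate 5 or Ezh2+/+ replicate 4. Without Ezh2-/- replicate 5, 2 genes of this list were higher.

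The acid-sensing channels are the nearest relatives of the sodium channel in mammals and act mainly in neurons. Of 5 genes, 1 was lower, 0 were higher and 4 did not pass, with a median log2 fold change of -0.10. Over all genes, 7.56% were lower and 14.8% were called in all. The lower gene, Asic3, was dim. Its log2 level was 3.74 to 4.09 in Ezh2-/- and 4.15 to 4.78 in Ezh2+/+ tumours, which did not overlap, at a log2 fold change of -0.54 (adjusted p = 0.0175 from limma). How many of all genes lay apart in this direction was not counted. The call was lost under each of the 4 other scalings. Asic1 had -0.22 (adjusted p = 0.178 from limma), while the signs of Asic2 at -0.10 and Asic4 at -0.10 turned after quantile normalization and median centring, and that of Asic2 after cyclic loess too.

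The list of other genes of epithelial ion and water transport held 28 measured genes. In limma 2 were higher, 2 lower and 24 did not pass (14.3% called, against 14.8% of all genes). The median log2 fold change was 0.087. The genes that rose were Fxyd5, which modulates the sodium pump, by 0.48 (adjusted p = 0.0417 from limma), and Aqp1, a water channel that is abundant in vessel walls, by 0.68 (adjusted p = 0.0431 from limma). The genes that fell were the kidney cotransporter gene Slc12a1, by 0.48 (adjusted p = 0.0348 from limma), and the kidney potassium channel gene Kcnj1, by 0.41 (adjusted p = 0.0403 from limma). Both kidney genes were dim, at mean log2 levels of 2.93 and 4.00 in Ezh2-/- against 3.41 and 4.41 in Ezh2+/+ tumours. Each of these 4 calls was lost after quantile normalization, after cyclic loess, after centring on the luminal markers and under the test of the methods with adjustment. Without single tumours they held in 2 of 10 fits for Fxyd5, 3 for Aqp1, 6 for Slc12a1 and 3 for Kcnj1.

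**Figure D3:**
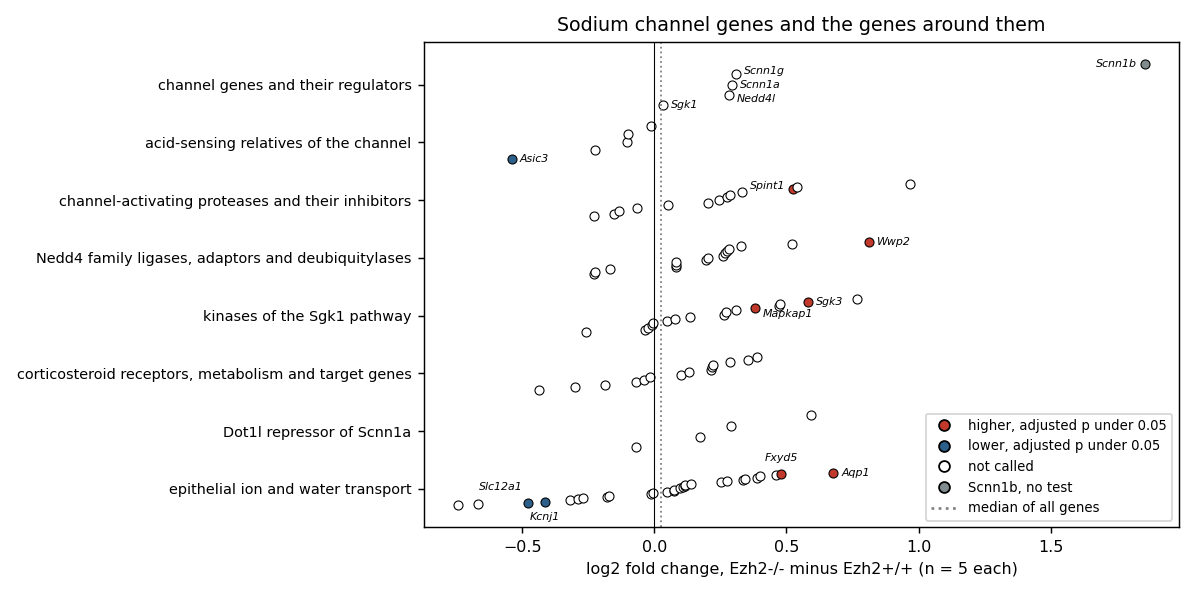
Log2 fold change, Ezh2-/- minus Ezh2+/+ (horizontal axis, n = 5 each), of the 5 genes and of every measured gene of the 7 lists, 1 point per gene, filled red or blue where limma called it at an adjusted p under 0.05 and open where not; the dotted line is the median of all genes at 0.026. Scnn1b, in grey without a test, stands at 1.86, and the listed gene with the largest rise that was called, Wwp2, at 0.81.

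Markers of fibroblasts and vessels were higher in Ezh2-/- tumours. In whole tumours, fewer cells of a type and less RNA per cell cannot be told apart. Of 13 luminal epithelium markers, 0 passed in limma or in the per-gene test of the methods with adjustment. Their median log2 fold change was 0.029. An unadjusted p under 0.05 was found for 3 of them. As the share of all genes there, over 14.8%, was not counted, these 3 cannot be set above it. The keratin genes Krt8 at -0.30 and Krt18 at -0.33 and the epithelial transcription factor genes Ehf at 0.52 and Elf5 at 0.24 had the smallest p of that list. Centred on the luminal markers of each array, Scnn1b had a log2 fold change of 1.83. Of 8 measured myoepithelium markers, 1 was higher, Oxtr at 0.89, against 7.29% of all genes. For Oxtr, 3 of 10 fits that leave out 1 tumour kept that call. The mean level of the list was 5.88 to 6.23 in Ezh2-/- and 5.45 to 6.26 in Ezh2+/+ tumours, with Krt14 at 0.54 (adjusted p = 0.304 from limma).

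Of 10 fibroblast markers, 8 were higher in limma, against 7.29% of all genes, with a median log2 fold change of 1.74. The collagen genes Col3a1 and Col1a1 rose by 2.13 and 1.90 and the matrix gene Lum by 2.57. The mean level of the list was 8.26, 7.58, 7.37, 8.67 and 7.91 in Ezh2-/- replicates 1 to 5, and 5.66 to 7.10 in Ezh2+/+ tumours. Ezh2-/- replicate 3 had the highest Scnn1b and the lowest fibroblast level of its genotype. In the Ezh2+/+ group, replicate 2 was highest in both.

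Counts for the other lists depended on the processing. Beside them, 7.29% of all genes were higher in limma. Of 10 endothelium markers, 6 were higher in limma (3 without Ezh2-/- replicate 4), with a median of 0.70 and a mean level of 6.11 to 6.71 against 5.64 to 5.96. Of 9 measured macrophage markers, 3 were higher, with a median of 0.68 and a mean level of 7.18 to 7.96 against 6.70 to 7.40. Of 7 measured T cell markers, 3 were higher (1 without Ezh2+/+ replicate 4), with a median of 0.44 and a mean level of 5.14 to 6.62 against 4.76 to 5.06. Adipocyte markers had a median of 0.84 with 1 of 10 higher (0 to 4 without single tumours), at 5.42 to 7.62 against 5.13 to 6.15, which overlap. Skeletal muscle markers had a median of 1.37, at 4.66 to 8.69 against 4.43 to 5.09. Of these 10, 0 were called in limma and in the test of the methods with adjustment. An unadjusted p under 0.05 was held by 5, while the share of all genes there, over 14.8%, was not counted. Ezh2-/- replicates 1 and 5 had the high muscle levels, 8.69 and 7.56, while replicates 3 and 4, at 4.67 and 4.66, lay within the Ezh2+/+ range. Under the methods' own test with adjustment, the numbers higher were 2 for endothelium, 1 for macrophages, 1 for T cells and 0 for adipocytes. After cyclic loess macrophages and T cells had 1 each and adipocytes 0, and after median centring macrophages had 7 and adipocytes 5. Centred on the luminal markers, T cells had 1 and adipocytes 0. The part of these cells in the values of Scnn1b and of the listed genes was not tested.

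**Figure D4:**
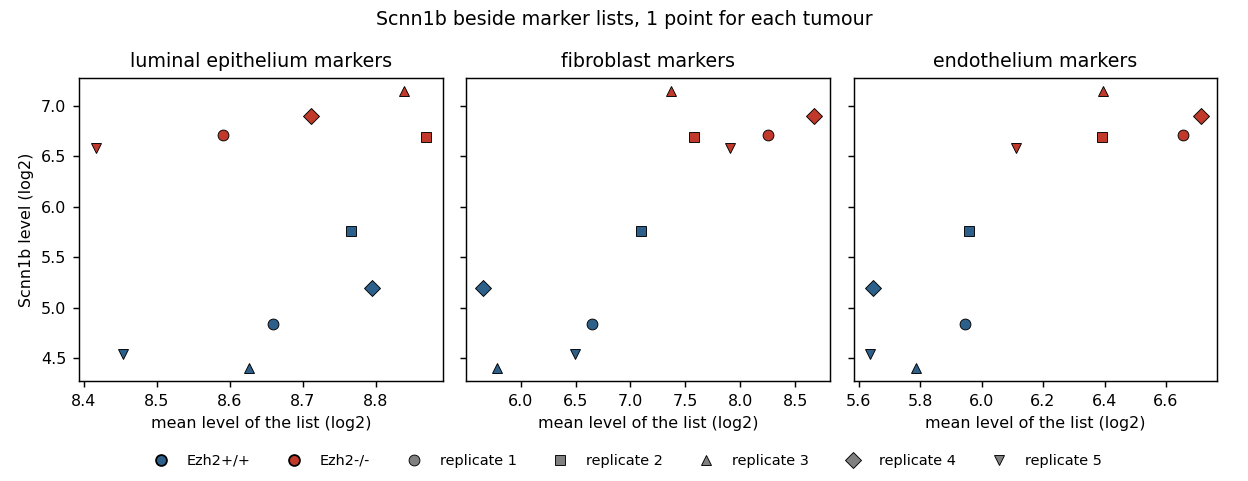
Log2 level of Scnn1b (vertical axis) against the mean log2 level of luminal epithelium, fibroblast and endothelium markers (horizontal axes), 1 point per tumour, with Ezh2+/+ in blue, Ezh2-/- in red and 1 symbol per replicate number. The genotypes share the same range of luminal markers, while fibroblast markers run from 7.37 to 8.67 in Ezh2-/- and from 5.66 to 7.10 in Ezh2+/+ tumours.

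The genes whose profile over the 10 tumours lay nearest to that of Scnn1b were found by the root mean square distance of log2 levels, each centred on its own mean, with predicted and RNA genes left out. The nearest was Vtcn1, an inhibitory ligand of T cells that many breast epithelia carry, at a distance of 0.317. Vtcn1 had log2 levels of 8.45, 9.00, 8.67, 8.57 and 8.48 in Ezh2-/- replicates 1 to 5 and 7.47, 7.62, 6.47, 7.22 and 6.84 in Ezh2+/+ replicates 1 to 5. As with Scnn1b, replicate 2 was the highest and replicate 3 the lowest of the Ezh2+/+ tumours, a likeness that the search itself selects for. Next were Padi2, an enzyme that converts arginine to citrulline, at 0.323, the collagen gene Col6a3 at 0.400, the aldo-keto reductase gene Akr1b10 at 0.401 and the scaffold gene Homer2 at 0.410. Their log2 fold changes, with Vtcn1, lay between 1.37 and 1.66, given as a description since the order follows from the rise of Scnn1b. Among all 22179 other genes, with predicted and RNA genes kept, Scnn1g ranked 2293, Nedd4l 3899, Scnn1a 4293 and Sgk1 9683.

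The genes around Scnn1g and Scnn1b on chromosome 7 were compared last, a set chosen with its values known. Of the 3 protein-coding genes on each side, 0 of 6 were called in limma or in the test of the methods with adjustment. An unadjusted p under 0.05 was seen for 2. The share of all genes there, over 14.8%, was not counted, so these 2 cannot be set above it. On the Scnn1g side, the log2 fold change of Usp31, a deubiquitylase gene, was 0.27 (standard error 0.22), that of the heparan sulfate enzyme gene Hs3st2 -0.28 (standard error 0.11) and that of the inner ear gene Otoa -0.29 (standard error 0.15). On the Scnn1b side, the Golgi gene Cog7 had 0.22 (standard error 0.14), the sorting adaptor gene Gga2 -0.29 (standard error 0.12) and the mitochondrial tRNA synthetase gene Ears2 0.21 (standard error 0.11). The neighbours with an unadjusted p under 0.05 were Hs3st2 and Gga2, both at a lower mean in Ezh2-/- tumours.

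**Figure D5:**
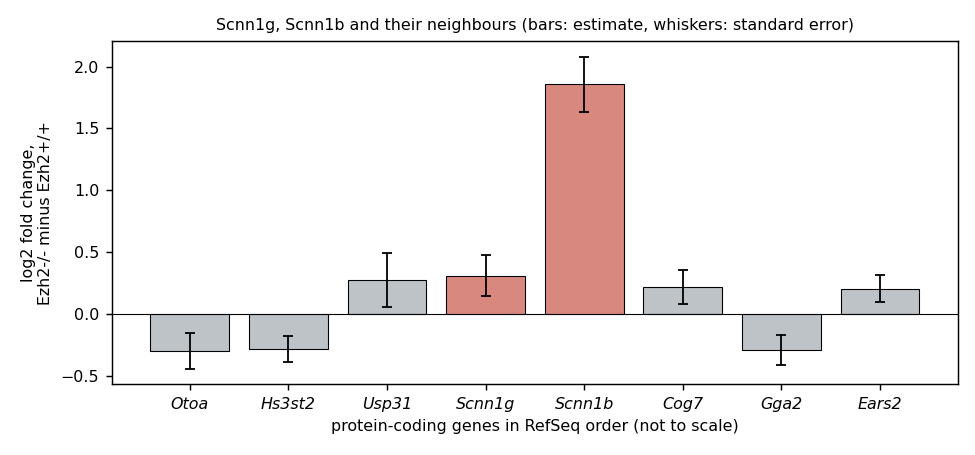
Log2 fold change, Ezh2-/- minus Ezh2+/+ (vertical axis, bars with standard errors, n = 5 each), of Scnn1g and Scnn1b in red and of 3 protein-coding neighbours on each side in grey, in RefSeq order along chromosome 7 and not to scale. The bars of the neighbours and of Scnn1g lie between -0.29 and 0.31, and that of Scnn1b at 1.86.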

How the data were processed

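Levels of RNA in 10 frozen endpoint tumours come from Mouse Gene 2.0 ST arrays of Affymetrix. The authors made normalized gene-level values in Affymetrix Expression Console and compared genotypes in Transcriptome Analysis Console, and the deposited values run from 0.595 to 13.2. They were read as log2 values because of that range, the algorithm and the log base being not given in the sources used here. They were used without further scaling. The median per array was 4.35 to 4.46 in Ezh2-/- and 4.54 to 4.67 in Ezh2+/+ tumours. The upper quartile went the other way, at 6.14 to 6.21 in Ezh2-/- and 6.04 to 6.12 in Ezh2+/+ tumours. Arrays correlated at 0.965 to 0.982 within a genotype and 0.930 to 0.962 between them. The number of arrays limits the precision.

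Of 41345 probe sets, the platform annotation gives 23521 a single gene symbol and 1820 several, and leaves 16004 unlisted. Symbols were updated by Entrez ID through RefSeq (GRCm38.p6), where 23328 matched. This left 22180 genes, each read from its brightest such probe set by the mean of all arrays. Genotypes were compared with limma (version 3.58.1, R 4.3.3), with its default prior. Two-sided p-values were corrected over all genes after Benjamini and Hochberg, and a gene was called at an adjusted p under 0.05. Intervals are 95% intervals of the limma fit, except that of Scnn1g minus Scnn1a. That interval and the standard errors of the within-tumour differences come from an equal-variance estimate outside limma. Within-tumour differences were compared by an exact permutation test. Plots were made in Python 3.11.15 (matplotlib 3.10.9), and promoter sequences come from RefSeq.

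The genes and lists were chosen with earlier results of these data known. Some genes of the lists are not reported here. Named were the 5 channel genes and regulators, up to 4 genes with the smallest p of each list, every called gene of a pathway list, and the 5 genes nearest to Scnn1b. The alternatives were the methods' own equal-variance test per gene (with adjustment, and at an unadjusted p under 0.05 with a fold change over 1.5), limma with array weights or with a robust prior and an intensity trend, scaling by quantiles, by medians, by cyclic loess or on luminal markers, testing without the 40% dimmest genes, averaging the probe sets of a gene, a block for the replicate number, and each tumour left out in turn.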

Additional observations from a re-analysis of the deposited data

Results flagged for a closer look

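Of 90 groups of 5 tumours, 3 held a tumour whose gap to the nearest of the others was over 0.71 of the group's range (Dixon's criterion), and chance sets 1 in 20 groups apart. Scnn1b minus Scnn1a was 1.66 log2 units in Ezh2-/- replicate 3, against 1.07 to 1.23 in the other Ezh2-/- tumours. The mean level of myoepithelium markers was 5.88 in Ezh2-/- replicate 5, against 6.15 to 6.23 in the others. The mean level of T cell markers was 6.62 in Ezh2-/- replicate 5, against 5.14 to 5.57 in the others.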

How the results depend on the processing

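Scnn1a, Scnn1b, Scnn1g and Nedd4l kept their direction in every alternative run, and of the 4 genes tested 1 passed in 1 alternative, Scnn1g after median centring (0.48). Sgk1 turned to -0.11 after quantile normalization and -0.12 after cyclic loess, and spanned -0.014 to 0.088 without single tumours. Scnn1g minus Scnn1a turned to -0.070 and -0.046 under the same scalings and spanned -0.22 to 0.16 without single tumours. Of all genes, 1617 higher became 862 under the methods' own test with adjustment, 1063 at the methods' threshold, 2434 with array weights, 5219 after median centring and 1035 after centring on luminal markers. Without single tumours they numbered 748 (Ezh2-/- replicate 4) to 2519 (Ezh2-/- replicate 5), and leaving out Ezh2-/- replicates 1, 2 and 3 gave 1049, 875 and 1063, and Ezh2+/+ replicate 5 gave 824. The 1676 lower became 882 after quantile normalization, 927 after median centring, 996 after cyclic loess, 861 after centring on luminal markers, 535 without the 40% dimmest genes and 950 at the methods' threshold. They numbered 983 (without Ezh2-/- replicate 4) to 1920 without single tumours, with 1085 without Ezh2-/- replicate 2 and 1044 without Ezh2+/+ replicate 5. The share of calls that were higher was 49.1% as deposited, 60.3% after quantile normalization, 84.9% after median centring and 52.3% after cyclic loess. Of the channel-related lists, 6 higher became 3 under the methods' own test with adjustment, 2 at the methods' threshold, 11 with array weights, 3 after quantile normalization, 21 after median centring, 2 after cyclic loess, 3 after centring on luminal markers and 2 to 12 without single tumours. The 3 lower became 1 under both forms of the methods' own test, 0 under the 4 other scalings and without the dimmest genes, and 1 to 4 without single tumours. The causes were not tested.

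With the replicate number as a block, 2552 genes were higher, 13 of them in the channel-related lists, and Nedd4l had an adjusted p of 0.129 from limma. The labels do not say that a number marks shared animals or batches. Deviations of tumours with the same number correlated at -0.042 to 0.341, over 0.1 in 3 of 5 pairs. Those with different numbers correlated at -0.297 to 0.179, and 4 of 10 tumours matched their own number best. Whether equal numbers mark a pairing is not settled by these values. The main fit used no block because the labels name none.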
